A study of Mus musculus with 14 samples.

Results

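The 8 genes described here make or sense leukotrienes and prostaglandin E2, lipid mediators derived from arachidonic acid, and were followed in cultured mouse CD4 T cells. They are the leukotriene receptors Cysltr1 and Ltb4r1, the leukotriene synthesis genes Alox5, Alox5ap, Lta4h and Ltc4s, and the prostaglandin E2 receptors Ptger2 and Ptger4. They were chosen by symbol among 18193 genes named on the array, and where a gene had several probe sets the brightest on average over the 14 arrays stood for it. That mean is the only measured value the choice of probe sets used. The genes themselves were chosen with earlier results of these data known.

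CD4 T cells from mouse spleen and from peripheral and mesenteric lymph nodes were cultured with IL-2 and polarised towards Th17, Treg or Th1 cells. Acetate, called C2 in the labels, was present at 10 mM or absent. Th17 cultures received TGF-b1, IL-6, IL-1b, IL-23, IL-21 and TNF-a with antibodies to IL-4 and IFN-gamma, Treg cultures TGF-b1, and Th1 cultures IL-12 with an antibody to IL-4. RNA was measured on Affymetrix arrays: 3 of Th17 cultures with acetate, 3 of Th17 controls, 2 of Treg cultures with acetate, 2 of Treg controls, 2 of Th1 cultures with acetate and 2 of Th1 controls. For treated Treg and Th1 cultures the protocol says acetone where the design text says sodium acetate, and protocols give 5 days of culture where the design text gives 6 to 7. They are called acetate cultures here. The labels give neither strain nor age, and do not say whether replicate arrays stem from different mice or dishes. The p-values therefore reflect the spread among these arrays alone, which may be technical.

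5-lipoxygenase, the product of Alox5, works with the membrane protein encoded by Alox5ap to turn arachidonic acid into an unstable epoxide. The hydrolase made from Lta4h turns that epoxide into leukotriene B4, an attractant of leukocytes sensed by the receptor that Ltb4r1 encodes, whereas Ltc4s encodes the synthase that joins it to glutathione to start the cysteinyl leukotrienes, which signal through the Cysltr1 receptor. Ptger2 and Ptger4 encode the EP2 and EP4 receptors, which raise cyclic AMP on binding prostaglandin E2, a signal known to modulate T cell activation and Th17 and Th1 development.

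Values below are quantile-normalized log2(signal + 3) unless called signals, differences are on that scale, and they understate the change of genes with low signals. A gene passed when its adjusted p in limma, corrected over the 10916 genes tested by the Benjamini-Hochberg method, was under 0.05. The level needed for testing, and the overall mean of a gene set against it, are instead log2(signal + 3) of the signals as deposited. Of the 8 genes, 6 reached the mean level of 3.60 needed for testing, a signal of about 9.10. Alox5ap, at a mean of 4.10, lay just above that level, while Alox5, at 3.50, and Ltc4s, at 2.52, lay under it and were not tested. Arrays within a group correlated at 0.94 to 0.983 over 10 pairs. As deposited, the arrays were not on 1 scale, with trimmed means from 52.7 to 115, so that array totals touch any result on unscaled signals. In the control cultures the Th17 cytokine gene Il17a averaged 9.35 in Th17 arrays, against 3.53 in Th1 and 2.75 in Treg arrays, and the Treg factor gene Foxp3 averaged 8.37 in Treg arrays, against 6.37 in Th17 and 3.98 in Th1 arrays. The Th1 genes were less distinct. Of 7 tested, Tbx21, Ccl5 and Il12rb2 were lower in Th17 than in Th1 controls. Between Treg and Th1 controls Il12rb2 was lower in Treg (-1.59, adjusted p = 0.03) and Cxcr3 higher in Treg (2.38, adjusted p = 0.0142), with a median over the list of 0.08, and the values of Ifng were -1.62 for Th17 (adjusted p = 0.348) and -0.48 for Treg controls (0.877) against Th1.

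Across the control cultures the 2 leukotriene receptor genes shared 1 order, with Th17 highest, Th1 between and Treg lowest. With acetate both were higher in Treg cultures, Cysltr1 was lower in Th17 and Th1 cultures, and Ltb4r1 passed in neither of these. The Cysltr1 difference with acetate therefore had opposite signs in Treg cultures and in the other subsets.

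Cysltr1, on the X chromosome (GRCm38.p6 chrX:106576509-106603679), is the receptor gene for cysteinyl leukotrienes. Its levels were 8.12, 8.0 and 9.0 in Th17 acetate arrays, against 9.94, 10.36 and 10.06 in Th17 control arrays. Every Th17 control array lay above every Th17 acetate array, and the deposited signals were 262 to 545 with acetate against 1279 to 1669 in controls. In Treg cultures the levels were 7.76 and 7.15 with acetate, against 5.78 and 5.00 in controls, so that here the acetate arrays were the higher ones. In Th1 cultures the levels were 6.40 and 5.90 with acetate, against 8.04 and 7.68 in controls, again without overlap and again lower with acetate. Separation of the arrays is common in groups this small, and was found for 41.1% of all genes tested in the Th17 comparison, 64.8% in the Treg comparison and 43.1% in the Th1 comparison.

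The acetate difference in Cysltr1 was -1.75 ± 0.29 (SE) in Th17 cultures, a 3.36-fold lower level (95% interval -2.37 to -1.13, adjusted p = 0.00148). It was 2.07 ± 0.35 in Treg cultures, a 4.19-fold higher level (1.30 to 2.83, adjusted p = 0.00298). In Th1 cultures it was -1.71 ± 0.35, a 3.27-fold lower level (-2.47 to -0.94, adjusted p = 0.0248), which no longer passed without Th1 acetate replicate 2 (-1.45, adjusted p = 0.137), Th1 control replicate 1 (-1.53, 0.0677) or Th1 control replicate 2 (-1.89, 0.0721), or with probe sets averaged (-1.38, 0.0579). Because the signs cancelled, the mean difference over the 3 subsets was -0.46 (-0.88 to -0.05, adjusted p = 0.0827). The limma F test of whether the 3 acetate differences were unequal gave an adjusted p of 0.00762 for Cysltr1. The acetate difference in Th17 minus that in Treg cultures was -3.82 ± 0.46 (adjusted p = 0.00324, a test that 0.476% of all genes passed), and that in Treg minus that in Th1 cultures was 3.77 ± 0.50 (adjusted p = 0.0112, passed by 0.687% of all genes). Th17 minus Th1 gave -0.04 (-1.03 to 0.94), in a test that 0.0366% of all genes passed. Without Treg acetate replicate 1 the F test gave 0.0567.

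The less bright Cysltr1 probe set, which the platform annotation assigns to the same transcript record, gave the same signs in a fit over 19531 probe sets. Its acetate difference was -1.55 ± 0.31 in Th17 cultures (adjusted p = 0.0053), 1.80 ± 0.38 in Treg cultures (0.0107) and -1.06 ± 0.38 in Th1 cultures (0.14). The Th1 value of this probe set did not pass. It measures the same RNA extracts and is no independent replicate.

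Among control cultures Cysltr1 was 4.73 ± 0.32 higher in Th17 cultures than in Treg ones (26.6-fold, adjusted p = 3.82e-06), 2.26 ± 0.32 higher in Th17 cultures than in Th1 ones (4.80-fold, adjusted p = 0.0015) and 2.47 ± 0.35 lower in Treg than in Th1 cultures (difference -2.47, adjusted p = 0.00194). With acetate the Th17 to Th1 difference was 2.22 ± 0.32 (adjusted p = 0.00176), whereas Th17 was 0.92 above Treg (0.22 to 1.61, adjusted p = 0.244) and Treg was 1.31 above Th1 (0.54 to 2.07, adjusted p = 0.0928). Ranked by mean, Cysltr1 ran from Th17 control (10.12) through Th17 acetate (8.37), Th1 control (7.86), Treg acetate (7.46) and Th1 acetate (6.15) to Treg control (5.39). Arrays of Th17 acetate and Th1 control overlapped, as did those of Th1 control and Treg acetate, and the other neighbours did not.

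**Figure D1:**
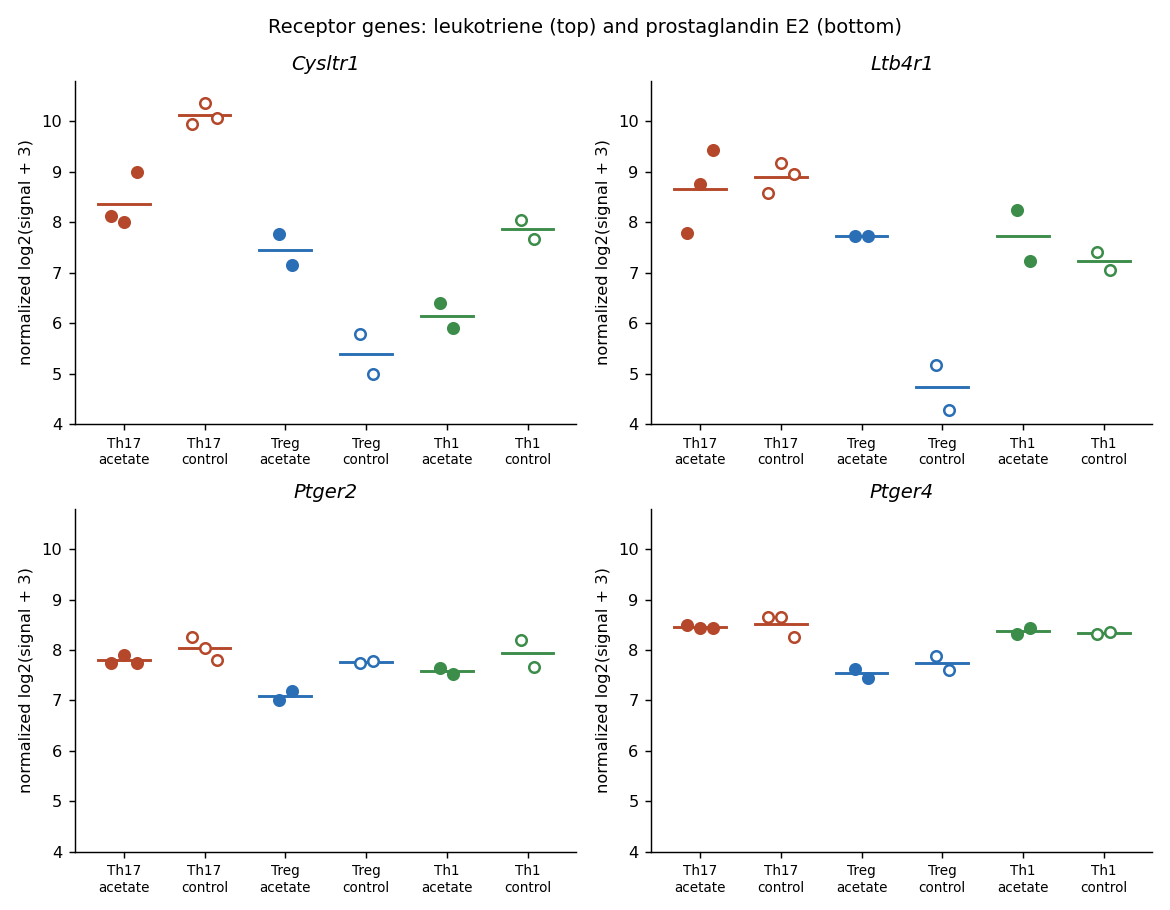
Normalized log2(signal + 3) of Cysltr1, Ltb4r1, Ptger2 and Ptger4 on each of the 14 arrays, with filled points for acetate, open points for control and a line at each group mean. Cysltr1 is lower with acetate in Th17 (mean 8.37 against 10.12) and Th1 cultures (6.15 against 7.86) and higher in Treg cultures (7.46 against 5.39), while the Ptger2 and Ptger4 means stay between 7.09 and 8.52.

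Ltb4r1 (chr14:55765962-55768492, plus strand), the receptor gene for leukotriene B4, had levels of 7.72 and 7.73 in Treg acetate arrays, against 5.17 and 4.28 in Treg control arrays. Its deposited signals in these arrays were 174 to 177 with acetate, against 14.5 to 37.8 in controls. The Treg controls were the lowest of all 14 arrays and did not overlap with any other group. In Th17 cultures the levels were 7.78, 8.75 and 9.43 with acetate, against 8.59, 9.17 and 8.96 in controls, and the acetate arrays spread on both sides of the controls. In Th1 cultures the levels were 8.24 and 7.22 with acetate, against 7.40 and 7.04 in controls, and the groups overlapped.

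The acetate difference in Ltb4r1 was 3.00 ± 0.46 in Treg cultures, an 8.01-fold higher level (2.0 to 4.0, adjusted p = 0.00185). In Th17 cultures it was -0.25 (-1.06 to 0.57, adjusted p = 0.684), and without Th17 acetate replicate 1 it was 0.19 (adjusted p = 0.73). In Th1 cultures it was 0.51 (-0.49 to 1.51, adjusted p = 0.565). Over the 3 subsets the mean difference was 1.09 ± 0.25 (adjusted p = 0.00546), which passed in all 23 alternatives, with the Treg value the largest of the 3. The F test gave an adjusted p of 0.0486 and did not pass in 15 of the 23 alternatives. For Ltb4r1 the acetate difference in Th17 minus that in Treg cultures was -3.25 ± 0.60 (adjusted p = 0.0282), and that in Treg minus that in Th1 cultures was 2.49 (1.08 to 3.91, adjusted p = 0.117). Without 1 array the F test gave adjusted p of 0.212 (Treg acetate replicate 1), 0.165 (Treg acetate replicate 2), 0.0876 (Treg control replicate 1), 0.22 (Treg control replicate 2), 0.0792 (Th17 acetate replicate 2), 0.0755, 0.112 and 0.12 (each Th17 control) and 0.0775 (Th1 control replicate 2).

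Among control cultures Ltb4r1 was 4.18 ± 0.42 higher in Th17 cultures than in Treg ones (18.1-fold, adjusted p = 7.6e-05) and lower in Treg than in Th1 cultures (difference -2.50 ± 0.46, adjusted p = 0.00858). The Treg to Th1 call ended without Treg control replicate 2 (-2.06, adjusted p = 0.108) and without Th1 control replicate 1 (-2.32, 0.0541). The Th17 to Th1 difference of 1.68 ± 0.42 (adjusted p = 0.0326) did not pass in 9 of 23 alternatives, among them the removal of each Th17 or Th1 control array. In acetate cultures none of the 3 differences between subsets passed for Ltb4r1: Th17 was 0.93 above Th1 (0.01 to 1.84, adjusted p = 0.241), Th17 was 0.93 above Treg (0.02 to 1.84, adjusted p = 0.403), and Treg and Th1 differed by -0.0042 (-1.0 to 0.99, adjusted p = 0.998). By mean, Ltb4r1 ran from Th17 control (8.90), Th17 acetate (8.66), Th1 acetate (7.73), Treg acetate (7.73) and Th1 control (7.22) to Treg control (4.73). Arrays of the first 4 overlapped from each to the next, those of Treg acetate and Th1 control did not, and the step to Treg control was 2.50.

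Over the 14 arrays the 2 receptor genes correlated at r = 0.813, a description of arrays that share subsets and treatments. The plot of both receptors on each array shows where they part.

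**Figure D2:**
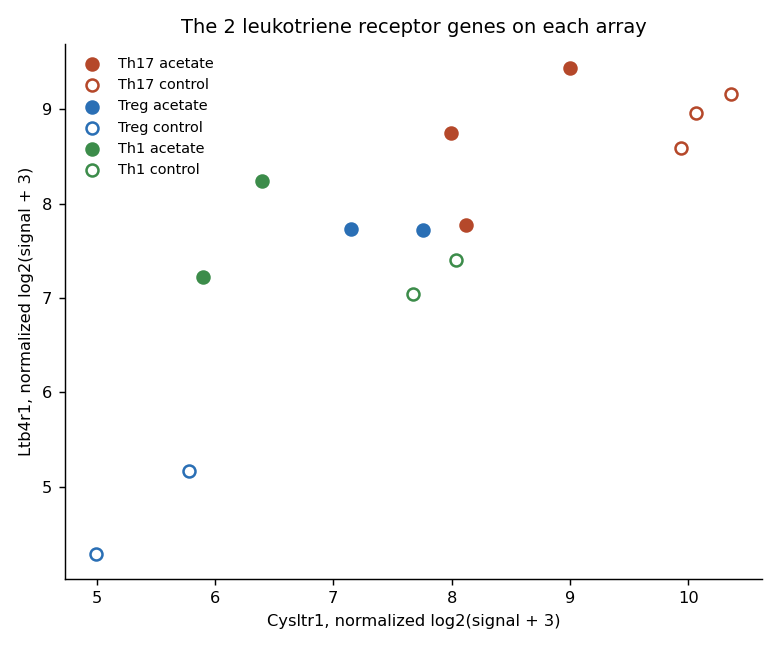
Cysltr1 (x axis) against Ltb4r1 (y axis) on the 14 arrays, both as normalized log2(signal + 3), with filled points for acetate and open points for control. The Treg control arrays lie lowest on both axes (Cysltr1 5.00 and 5.78, Ltb4r1 4.28 and 5.17), and the Th1 acetate arrays lie left of the Th1 controls (Cysltr1 5.90 and 6.40 against 7.68 and 8.04).

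Promoter sequences are shown for the receptor genes found in the RefSeq promoter table (GRCm38.p6), so that the promoter of the widely varying Ltb4r1 can be read beside those of the steadier Ptger2 and Ptger4. Each runs 5′ to 3′ on the gene's strand and covers 250 bases before the annotated start and 50 from it onward. A total of 6 of the 8 genes matched the table. Capitals mark matches on either strand to 4 motifs: the RUNX core TGTGGT, the GC box GGGCGG, the STAT motif TTCNNNGAA and the AP-1 motif TGANTCA. A lower-case sequence holds no match.
Ltb4r1: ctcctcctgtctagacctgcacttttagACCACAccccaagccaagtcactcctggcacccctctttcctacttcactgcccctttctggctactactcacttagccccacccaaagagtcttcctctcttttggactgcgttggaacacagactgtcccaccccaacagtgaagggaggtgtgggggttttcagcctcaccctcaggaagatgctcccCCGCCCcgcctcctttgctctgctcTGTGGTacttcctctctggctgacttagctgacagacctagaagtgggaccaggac
Ptger2: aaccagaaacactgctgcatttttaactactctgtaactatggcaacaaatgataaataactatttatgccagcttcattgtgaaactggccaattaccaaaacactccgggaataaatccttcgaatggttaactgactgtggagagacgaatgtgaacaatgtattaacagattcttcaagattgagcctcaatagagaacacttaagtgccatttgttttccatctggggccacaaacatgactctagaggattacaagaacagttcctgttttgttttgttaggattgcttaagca
Ptger4: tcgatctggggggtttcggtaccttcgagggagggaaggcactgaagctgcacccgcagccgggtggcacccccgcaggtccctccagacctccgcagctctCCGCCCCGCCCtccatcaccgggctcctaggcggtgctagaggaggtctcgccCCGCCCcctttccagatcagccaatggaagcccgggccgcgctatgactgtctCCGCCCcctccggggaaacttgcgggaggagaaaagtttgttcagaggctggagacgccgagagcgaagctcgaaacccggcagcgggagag
The Ltb4r1 promoter (chr14:55765712-55766011, plus strand) holds the RUNX core at -222 on the opposite strand and at -6 on the gene's strand, and a GC box at -31, counted from the first base of the match to the annotated start. The Ptger2 promoter (chr14:44987861-44988160, plus strand) holds none of the 4 motifs, and the Ptger4 promoter (chr15:5244138-5244437, minus strand) holds 4 GC boxes, of which the 2 farthest from the start overlap by a base. Of the 32851 promoters in the table, 16.8% hold the RUNX core, 35.7% the GC box, 8.30% the STAT motif and 7.81% the AP-1 motif. GC content was 56.3% for Ltb4r1, 37.7% for Ptger2 and 67.0% for Ptger4. A match describes letters in this window and is not a measured site.

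The prostaglandin E2 receptor genes moved little. Ptger2 (chr14:44988111-45003820, plus strand), which encodes EP2, was somewhat lower with acetate over the 3 subsets together, and Ptger4 (chr15:5233399-5244187, minus strand), which encodes EP4, passed in no acetate comparison. The Treg cultures had the lowest Ptger4 levels with and without acetate.

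Ptger2 levels were 7.75, 7.90 and 7.74 in Th17 acetate arrays, against 8.26, 8.03 and 7.80 in Th17 controls. They were 7.00 and 7.18 in Treg acetate arrays, against 7.74 and 7.78 in Treg controls. In Th1 cultures they were 7.63 and 7.52 with acetate, against 8.20 and 7.66 in controls. The acetate arrays lay below the controls in Treg and Th1 cultures, and in Th17 cultures acetate replicate 2 overlapped with the controls. Arrays separated, in either direction, for 64.8% of all genes tested in Treg and 43.1% in Th1 cultures. The mean difference over the 3 subsets was -0.42 ± 0.11 (adjusted p = 0.0125), which missed the threshold on signals as deposited (-0.51, adjusted p = 0.0547). By subset the difference was -0.24 in Th17 (-0.60 to 0.13, adjusted p = 0.35), -0.67 in Treg (-1.11 to -0.22, adjusted p = 0.052) and -0.36 in Th1 cultures (-0.80 to 0.09, adjusted p = 0.337). The Treg value passed in 7 of 23 alternatives, with adjusted p from 0.0293 to 0.276 over them all. The F test for Ptger2 gave 0.629, and no difference between subsets passed for it within controls or within acetate cultures.

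Ptger4 levels were 8.49, 8.43 and 8.43 in Th17 acetate arrays, against 8.66, 8.65 and 8.26 in Th17 controls. They were 7.62 and 7.45 in Treg acetate arrays, against 7.89 and 7.61 in Treg controls, and 8.31 and 8.44 in Th1 acetate arrays, against 8.32 and 8.36 in Th1 controls. In each subset the treated and control arrays overlapped. The acetate difference was -0.07 in Th17 (-0.39 to 0.24), -0.21 in Treg (-0.60 to 0.17) and 0.03 in Th1 cultures (-0.35 to 0.42), so that each interval excludes a change of 1 log2 unit or more.

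Ptger4 was 0.78 ± 0.16 higher in Th17 than in Treg controls (1.71-fold, adjusted p = 0.00743), a call lost without Treg control replicate 2 (0.64, adjusted p = 0.122). With acetate it was 0.91 ± 0.16 higher in Th17 cultures than in Treg ones (1.89-fold, adjusted p = 0.018) and lower in Treg than in Th1 cultures (-0.84 ± 0.18, adjusted p = 0.0371). These acetate calls ended on signals as deposited (adjusted p = 0.0542 against Th17 and 0.13 against Th1), with probe sets averaged (0.0637 against Th17 and 0.0859 against Th1) and without either Treg acetate array (0.117 and 0.272 against Th17, 0.158 and 0.311 against Th1). The call against Th17 also ended without Th17 acetate replicate 2 (0.0585), that against Th1 without Th1 acetate replicate 2 (0.216) and, at 0.0528 to 0.058, without any 1 control array of the Th17 or Treg cultures. The call against Th1 ended as well with the replicate number as a block (0.0677) and without a trend (0.0699). In controls the Treg to Th1 difference was -0.59 (-0.98 to -0.21, adjusted p = 0.076). The dimmer Ptger4 probe set, with signals of 6.79 to 46.5, had the same signs in the limma fit over 19531 probe sets but did not pass. It gave 0.82 for Th17 against Treg controls (adjusted p = 0.142). With acetate it gave 0.78 for Th17 against Treg (0.381) and -0.83 for Treg against Th1 (0.296).

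Of the 4 synthesis genes, Lta4h was well above the level needed for testing on every array, Alox5ap was close to it, and Alox5 and Ltc4s were under it in the mean. Detection calls were not analysed here, so low values are not read as absence of a transcript.

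Lta4h (chr10:93453396-93484896), whose product makes leukotriene B4, had levels of 9.82, 9.71 and 9.46 in Th17 acetate arrays, against 9.07, 9.09 and 9.15 in Th17 controls. The acetate arrays were all higher, and 41.1% of all genes tested had arrays that separated in this comparison, in either direction. In Treg cultures the levels were 9.96 and 9.74 with acetate, against 9.44 and 9.47 in controls, and in Th1 cultures 9.83 and 10.12 with acetate, against 9.47 and 10.17 in controls. The acetate difference was 0.56 ± 0.17 in Th17 cultures (1.47-fold, adjusted p = 0.0348), 0.39 in Treg cultures (-0.06 to 0.85, adjusted p = 0.252), 0.15 in Th1 cultures (-0.30 to 0.60, adjusted p = 0.724) and 0.37 ± 0.11 in the mean (adjusted p = 0.0248). When the 3 Lta4h probe sets were averaged, the Th17 value was -0.14 (adjusted p = 0.722) and the mean -0.22 (0.32), and on signals as deposited the Th17 value was 0.28 (0.447) and the mean 0.40 (0.0845). The other Lta4h probe sets were dim, with signals of 7.21 to 29.5 and 0.689 to 14.2, against 543 to 1190 for the one used. In the limma fit per probe set the first of these 2 gave 0.26 in Th17 (adjusted p = 0.677), -0.98 in Treg (0.192) and -0.80 in Th1 cultures (0.326). The Th17 call also ended without any 1 Th17 control array (adjusted p from 0.0788 to 0.0967), Th17 acetate replicate 1 (0.0906) or 2 (0.0942), or either Treg control array (0.0506 and 0.0509). The call of the mean ended without 5 single arrays, at 0.0552 to 0.0791. In controls Lta4h was lower in Th17 cultures than in Th1 ones (-0.72 ± 0.19, adjusted p = 0.0422), which failed in 14 of 23 alternatives, was -0.05 on signals as deposited and was -0.37 without Th1 control replicate 2 (0.426).

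Alox5ap (chr5:149265004-149288153), the helper of 5-lipoxygenase, had signals between 4.14 and 34.7. Its levels were 4.36, 4.36 and 4.12 in Th17 acetate arrays, against 3.73, 4.11 and 2.80 in Th17 controls. They were 3.99 and 4.61 in Treg acetate arrays, against 5.06 and 5.01 in Treg controls, and 3.91 and 3.57 in Th1 acetate arrays, against 3.50 and 4.33 in Th1 controls. The Treg controls were the highest. The acetate difference was 0.73 in Th17 (-0.06 to 1.53, adjusted p = 0.179), -0.73 in Treg (-1.71 to 0.24, adjusted p = 0.33) and -0.17 in Th1 cultures (-1.15 to 0.80, adjusted p = 0.865). In controls Alox5ap was lower in Th17 cultures than in Treg ones (-1.49 ± 0.41, adjusted p = 0.0339). This call was lost in 7 of 22 alternatives, among them the removal of either Treg control array (0.176 and 0.172) and of Th17 control replicates 1 (0.0602) and 3 (0.11).

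Alox5 (chr6:116410071-116461178), the gene of 5-lipoxygenase, had signals of 2.42 to 19.3 over the 14 arrays, and its group means lay between 3.09 and 3.93, with treated and control arrays overlapping in each subset. Ltc4s (chr11:50236461-50238532), the gene of leukotriene C4 synthase, had signals of 0.945 to 11.7 and group means between 2.20 and 3.11. Neither was tested, and no order is read from these values.

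**Figure D3:**
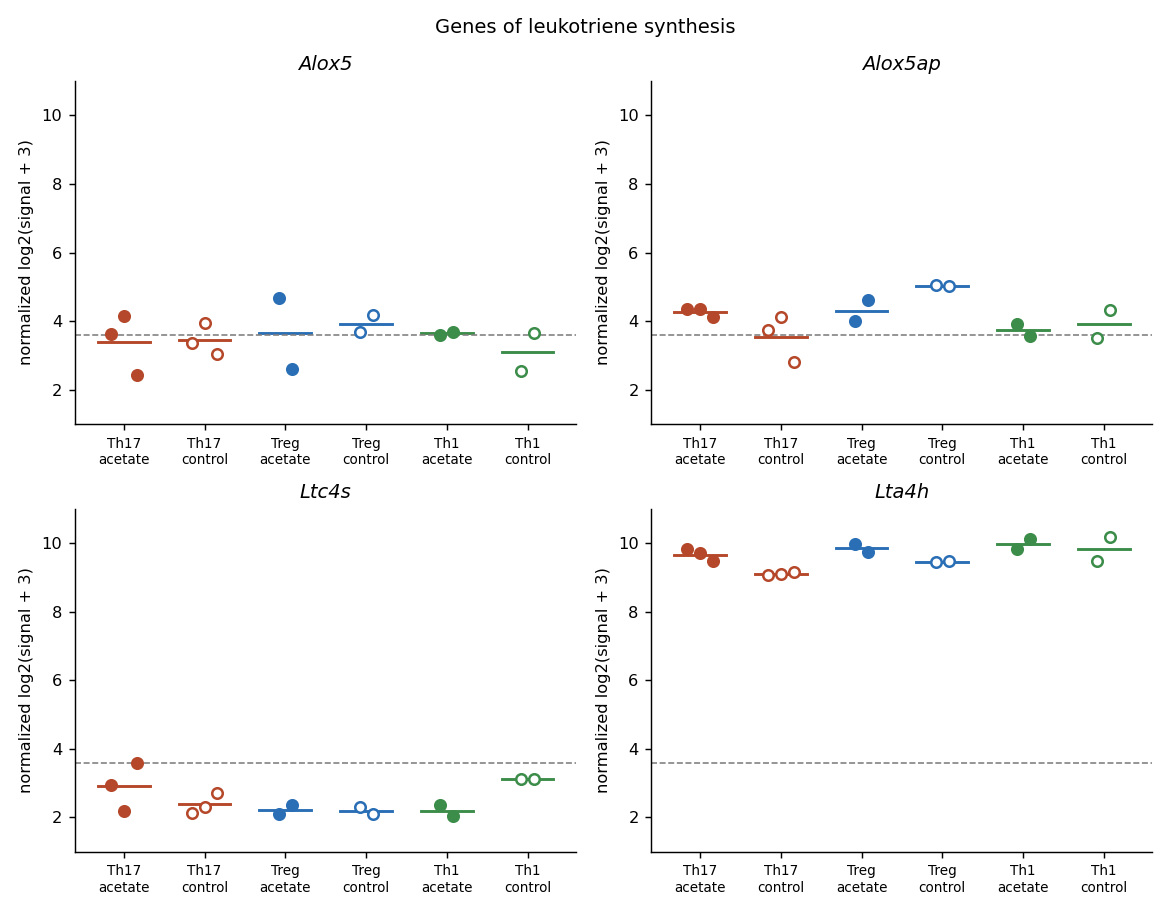
Normalized log2(signal + 3) of Alox5, Alox5ap, Ltc4s and Lta4h on each array, with filled points for acetate, open points for control, a line at each group mean and a dashed line at 3.60. This is the level that a gene's overall mean on signals as deposited needed for testing, while the points are normalized. Lta4h lies between 9.07 and 10.17 on every array, whereas the means of Alox5 (3.50) and Ltc4s (2.52) lie under the dashed line.

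Counted over the 6 genes tested, 2 passed in the Th17 acetate comparison (Cysltr1 lower, Lta4h higher), where 20.3% of all genes tested passed. In Treg cultures 2 passed, both higher (Cysltr1 and Ltb4r1), where 12.5% of all genes passed and 7.04% were higher. In Th1 cultures 1 passed (Cysltr1, lower), where 4.02% of all genes passed and 1.92% were lower. For the mean of the 3 subsets 3 passed (Ltb4r1 and Lta4h higher, Ptger2 lower), against 31.8%. The F test passed for 2, Cysltr1 and Ltb4r1, against 0.797% of all genes. Because the genes were chosen with earlier results of these data known, these counts cannot show an excess over the shares of all genes. The median acetate difference of the 6 genes was -0.15 in Th17 cultures, 0.09 in Treg cultures and -0.07 in Th1 cultures, beside medians of 0.01, 0.03 and 0.03 over all genes tested.

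Between control cultures 4 of the 6 passed for Th17 against Treg (background 11.4%), 3 for Th17 against Th1 (6.60%) and 2 for Treg against Th1 (4.99%). Between acetate cultures 1 passed in each comparison: Cysltr1 for Th17 against Th1 (5.25%), Ptger4 for Treg against Th1 (1.5%) and Ptger4 for Th17 against Treg (0.925%). With 6 genes, a share near the backgrounds of these subset comparisons is a single gene or fewer. For acetate in Th17 cultures and for the mean of the subsets the background is larger, and the counts lay close to it. These comparisons share arrays, so their counts are not independent. Given how the genes were chosen, these counts cannot show an excess over the backgrounds either.

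**Figure D4:**
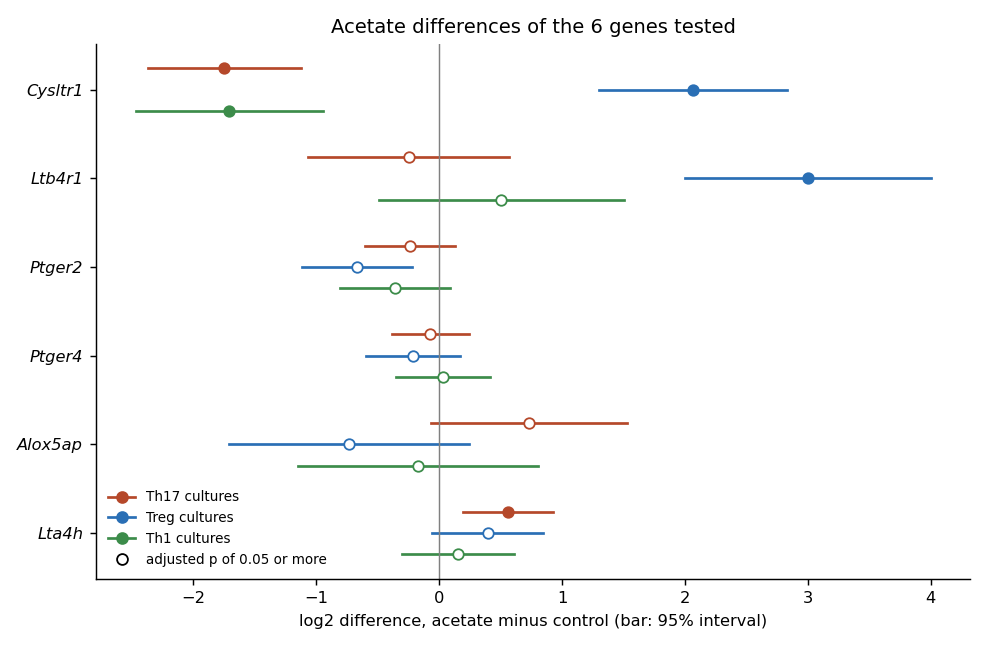
Acetate minus control, in log2 units, for the 6 genes tested in Th17, Treg and Th1 cultures, with bars for the 95% interval, filled points where the adjusted p was under 0.05 and open points otherwise. Cysltr1 lies at -1.75, 2.07 and -1.71 and Ltb4r1 at -0.25, 3.00 and 0.51, while every Ptger4 interval crosses 0.

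Other genes of the eicosanoid pathways were counted from lists of enzymes, receptors and signalling partners. These lists too were chosen with earlier results of these data known. In the leukotriene and lipoxygenase list 10 of 25 symbols were tested. With acetate 2 passed as higher and 0 as lower in Th17 cultures, 3 and 1 in Treg cultures, 3 and 1 in Th1 cultures, and 3 and 1 in the mean of the subsets. Of all genes tested 20.3% passed in Th17 cultures (11.7% higher), 12.5% in Treg cultures, 4.02% in Th1 cultures and 31.8% in the mean (17.7% higher and 14.2% lower). The counts for Th17 cultures and for the mean were thus near the background. In both Treg and Th1 cultures the genes that passed were Abcc1, Mgst2, Mgst3 and Ptgr1. Alternatives ended these calls in 3, 14, 3 and 0 of 23 cases in Treg cultures. In Th1 cultures they ended them in 18, 4, 6 and 11 of 24 cases. In the prostanoid synthesis and breakdown list 9 of 17 were tested, and 3 passed as higher and 0 as lower in the mean, again near the 31.8% of all genes. Cbr3, 1 of the 3, reached the level needed for testing only through its acetate arrays, so that count rests partly on a gene selected through its high group. The median of the mean difference was 0.22 in the first list and -0.12 in the second, beside 0.03 over all genes.

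Ptgr1, a reductase that inactivates leukotriene B4 and prostaglandins, averaged 8.33 in Th17 acetate cultures against 5.23 in controls, 8.43 against 6.30 in Treg cultures and 8.50 against 6.97 in Th1 cultures. Its acetate difference was 3.10 in Th17 (adjusted p = 0.00011), 2.13 in Treg (0.00269) and 1.52 in Th1 cultures (0.0375), and the Th1 call was lost in 11 of 24 alternatives, with adjusted p up to 0.16. Cbr3, a carbonyl reductase, averaged 4.82 in Th17 acetate cultures against 2.92 in controls, 5.69 in Treg acetate cultures against 2.95 in controls and 5.30 in Th1 acetate cultures against 2.16 in controls. All 3 control means, which are normalized, were under the level needed for testing, which was set on signals as deposited. Cbr3 was thus selected through the group where it was high, and its levels are given without a test. Mgst3, a microsomal glutathione transferase with leukotriene C4 synthase activity in vitro, was higher with acetate by 1.66 in Th17 cultures, 1.37 in Treg cultures and 1.25 in Th1 cultures (mean 1.43 ± 0.15, adjusted p = 3.56e-05). The Mgst3 call in Treg cultures was lost in 3 of 23 alternatives, among them without Treg acetate replicate 1 (0.0742) or Treg control replicate 2 (0.0746). That in Th1 cultures was lost in 6 of 24, among them without Th1 acetate replicate 1 (0.0818), either Th1 control array (0.0868 and 0.0777) or Th17 control replicate 3 (0.0504), whereas the mean passed in all 23. The related Mgst2, which can also make leukotriene C4, went the other way, at -0.87 in Th17 (adjusted p = 0.08), -1.37 in Treg (0.0432) and -1.88 in Th1 cultures (0.0279), with a mean of -1.38 ± 0.22 (adjusted p = 0.000549). The Mgst2 call was lost in 14 of 23 alternatives in Treg and in 4 of 24 in Th1 cultures, and each ended without either control array of the subset (adjusted p from 0.0603 to 0.174), while the mean passed in all 23. Abcc1, a pump that exports leukotriene C4, rose in the mean by 0.57 ± 0.10 (adjusted p = 0.000778). Ptgr2, a prostaglandin reductase, was 0.58 ± 0.15 higher in the mean (0.0103), but 0.03 when probe sets were averaged (0.892) and 0.46 on signals as deposited (0.11). Ptges2, a prostaglandin E synthase gene, was 1.33 higher in Th1 cultures (adjusted p = 0.00925), lost without Th1 acetate replicate 2 (0.0644) or Th1 control replicate 2 (0.0601).

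Cysltr2, the second cysteinyl leukotriene receptor gene, passed in no acetate comparison and is named after its values were seen, because it is the closest receptor to Cysltr1. It averaged 6.33 in Th17 acetate cultures against 5.23 in controls, 6.05 against 4.56 in Treg cultures, and 4.96 against 5.99 in Th1 cultures. Its acetate difference was 1.09 in Th17 (0.25 to 1.93, adjusted p = 0.063), 1.49 in Treg (0.46 to 2.52, 0.058) and -1.03 in Th1 cultures (-2.06 to -0.0028, 0.226). The F test for Cysltr2 gave 0.138.

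Of the prostanoid receptors other than Ptger2 and Ptger4, 3 of 8 were tested. Ptgir, the prostacyclin receptor gene, was 0.98 ± 0.22 higher with acetate in Th17 cultures (adjusted p = 0.0073), which did not pass on signals as deposited (0.78, adjusted p = 0.107). Tbxa2r, the thromboxane receptor gene, was lower with acetate in Treg cultures, at 6.99 against 8.05 in controls (-1.06 ± 0.28, adjusted p = 0.0278), and lower in the mean of the subsets (-0.64 ± 0.15, adjusted p = 0.00701). Without Treg acetate replicate 1 the Treg value of Tbxa2r was -0.83 (adjusted p = 0.23), and 5 other alternatives also ended that call. Tbxa2r was also lower in Th17 than in Treg controls (-1.36, adjusted p = 0.00434), a call that ended on signals as deposited (-0.85, adjusted p = 0.0887) and without Treg control replicate 2 (-1.25, 0.0645).

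In the list of phospholipases A2 and arachidonate handling 11 of 19 were tested, and 3 passed as higher and 1 as lower in the mean, near the background of 31.8%. Pla2g12a, a secreted phospholipase A2, averaged 8.31 in Treg acetate cultures against 6.64 in controls (1.68 ± 0.20, adjusted p = 0.000456), with a mean difference of 0.90 ± 0.11 (adjusted p = 7.64e-05) that passed in all 23 alternatives. Lpcat3, which returns polyunsaturated acyl chains to phospholipids, was 0.57 ± 0.13 higher in the mean (0.00407, but 0.0705 on signals as deposited), and Pla2g15, a lysosomal phospholipase, 0.48 ± 0.15 higher (0.0248, lost in 8 of 22 alternatives). Mboat7, which puts arachidonate into phosphatidylinositol, was lower in the mean (-0.55 ± 0.11, adjusted p = 0.00266).

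Of the genes of cyclic AMP signalling, the route used by the EP2 and EP4 receptors, 22 of 26 were tested, and 2 passed as higher and 6 as lower in the mean, a share near the 31.8% of all genes. The median was -0.14, beside 0.03 over all genes. The catalytic subunit gene of protein kinase A Prkacb was lower (-0.82 ± 0.13, adjusted p = 0.00044), whereas Prkaca, encoding another catalytic subunit, was higher (0.49 ± 0.17, 0.0401, passing in 8 of 23 alternatives). Creb1, a transcription factor that protein kinase A activates, was lower (-0.54 ± 0.10, adjusted p = 0.00122), but at -0.13 with probe sets averaged (0.41). Adcy6, an adenylyl cyclase, was lower too (-0.55 ± 0.13, adjusted p = 0.00525). The phosphodiesterase Pde7a, which breaks down cyclic AMP, was higher (0.79 ± 0.13, adjusted p = 0.000713), but at 0.40 with probe sets averaged (0.0564). Another such phosphodiesterase, Pde4d, went the other way (-0.97, adjusted p = 0.0249, passing in 18 of 23 alternatives). Gnas (-0.24, 0.0236, lost in 9 of 23) and Prkar1a (-0.21, 0.042, lost in 17 of 23) were lower as well. In none of these 5 lists did a gene pass the F test, which 0.797% of all genes passed.

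**Figure D5:**
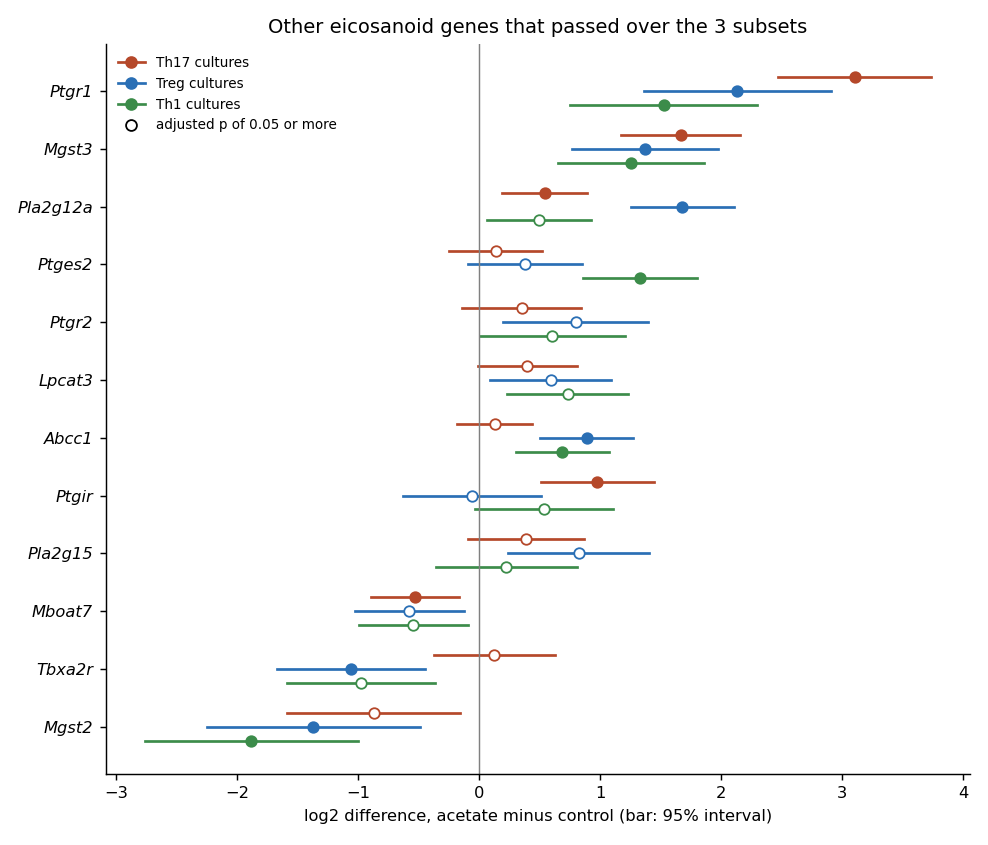
Acetate minus control, in log2 units with 95% intervals, in Th17, Treg and Th1 cultures for the 12 other genes of the leukotriene, prostanoid and phospholipase lists that passed in the mean of the 3 subsets and reached the level needed for testing in both the acetate and the control mean, ordered by the mean difference. Both means are normalized, whereas that level was set on signals as deposited. Ptgr1 and Mgst3 lie right of 0 in every subset and Mgst2 left of it, while Tbxa2r lies at -1.06 in Treg and 0.12 in Th17 cultures.

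Leukotriene genes are also expressed by myeloid cells, mast cells and B cells, so marker lists of these cells were summed on each array as normalized signals. In bulk RNA fewer cells of a type and less RNA per cell cannot be told apart. Dendritic cell markers summed to 2310 to 2970 in Th17 acetate against 871 to 1080 in Th17 control arrays, to 2470 to 2720 against 678 to 794 in Treg arrays, and to 1530 to 2080 against 1550 to 1640 in Th1 arrays. Of the 10 markers on the array 6 were tested, of which 5 passed as higher with acetate in Th17 (11.7% of all genes) and 3 in Treg cultures (7.04%), H2-Aa, H2-Ab1 and Batf3 in both, and 0 in Th1 cultures. The listed markers Flt3, Xcr1 and Zbtb46 were under the level needed for testing, and Itgax did not pass. Monocyte and macrophage markers summed to 160 to 220 in Th17 acetate arrays against 111 to 126 in controls, to 249 to 284 against 207 to 236 in Treg arrays, and to 286 to 311 against 143 to 217 in Th1 arrays. Of those 12 markers 8 were under the level needed for testing, Lyz2 among them, and of the 4 tested Cd68 passed in Th17 cultures (2.10, adjusted p = 0.00257). The other Th17 values were -0.36 for Csf1r, -0.32 for Adgre1 and 0.12 for Ccr2, and the median over the 4 was -0.10.

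B cell markers summed to 299 to 810 in Th17 acetate against 867 to 1440 in control arrays, to 923 to 1660 against 2460 to 2790 in Treg arrays, and to 136 to 147 against 591 to 755 in Th1 arrays. Ighm, the IgM heavy chain gene, was lower with acetate in Th17 (-1.30, adjusted p = 0.0253) and Th1 cultures (-2.96, 0.00742). The only other B cell marker tested, Cd79b, had values of 0.52 in Th17 (adjusted p = 0.397), -0.02 in Treg (0.986) and -0.17 in Th1 cultures (0.886), and Ms4a1 and Cd79a were under the level needed for testing. Mast cell and basophil markers summed to 71.6 to 94.2 in Th17 acetate against 106 to 140 in control arrays, to 118 to 123 against 99.6 to 242 in Treg arrays, and to 75.1 to 92.9 against 42.5 to 69.3 in Th1 arrays. Of these 11 markers 4 were tested, and Kit was lower with acetate in Th17 cultures (-1.57, adjusted p = 0.00788). Neutrophil and eosinophil markers summed to 59.3 to 144 over all arrays, with 3 of 12 tested and S100a8 and S100a9 under the level needed. The CD4 T cell identity genes, 11 of 11 tested, summed to 12700 to 17200 in Th17 acetate against 19000 to 20800 in control arrays, to 16300 to 17200 against 21800 to 24700 in Treg arrays, and to 15500 to 16500 against 20500 to 20900 in Th1 arrays. NK and CD8 T cell markers summed to 502 to 1260 in Th17 acetate against 883 to 1470 in control arrays. Their sums were 1070 to 1250 against 1600 to 2100 in Treg arrays, and 517 to 792 against 396 to 446 in Th1 arrays. Of these 6 markers 4 were tested, and 2 passed as higher with acetate in Th17 cultures, where 11.7% of all genes did. None passed in Treg or Th1 cultures. The part of these markers in the receptor results was not tested.

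Genes whose pattern over the 14 arrays was most like that of each tested gene are given as a description, with Pearson's r across arrays that share subsets and treatments. For Cysltr1 they were Commd7 (0.943) and Fabp5 (0.927), and for Ltb4r1 Anxa3 (0.975) and Rnf19b (0.95). For Ptger2 they were Rab14 (0.92) and Socs4 (0.884), and for Ptger4 Mgll (0.893) and Fubp3 (0.882). For Lta4h they were Selenoh (0.977) and Ube2t (0.974), and for Alox5ap Rsad2 (0.886) and Klf3 (0.854). Between the genes themselves, r was 0.686 for Ptger2 and Ptger4, -0.641 for Lta4h and Ptger2, and -0.608 for Ltb4r1 and Alox5ap.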

How the data were processed

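RNA was hybridised to 14 Affymetrix arrays, and the deposited table holds a linear signal intensity for each probe set on each array. The submitters' processing notes name MAS5 as the authors' software, and no source used here gives its version or target value. Of 45101 probe sets 34945 carried 1 gene symbol in the platform annotation, 932 several and 9211 none, and 64 were array controls, which were left out. Entrez identifiers matched 34741 of the single-symbol probe sets to a RefSeq gene table, and 0 symbols differed. A gene's brightest probe set by mean log2(signal + 3) stood for each of 18193 genes, and the 10916 genes whose mean reached the 40th percentile entered the tests.

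Because the deposited arrays differed 2.18-fold in trimmed mean, log2(signal + 3) was quantile-normalized. One limma 3.58.1 fit (R 4.3.3) to all 14 arrays had 6 group means, 8 residual degrees of freedom and eBayes with a trend, and p-values were adjusted by the Benjamini-Hochberg method over all genes tested. Intervals are 95% intervals of single comparisons. The code of the fit was run on simulated data with independent noise and known differences added to the Treg acetate arrays only. That run checks the code, not how the fit handles array scale or technical replicates. Alternatives were signals as deposited, trimmed-mean scaling, pseudocounts of 1 and 10.8, no filter, a filter at the 60th percentile, averaged probe sets, eBayes without a trend, the replicate number as a block, and each array left out. The fit per probe set, the crossed numbers and the pairwise differences between acetate differences were chosen after seeing the data. Where 1 array was left in a group, it was assumed to vary like those of other groups. Array number limits the precision. No scan date or batch was used, so a batch that coincides with a group cannot be told apart from it.

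The 8 genes and the gene lists were chosen with earlier results of these data known, so their p-values describe these arrays and are not independent support. All 8 genes are named. Of the other lists, genes that passed in an acetate comparison could be named, and for marker lists the first 4 genes and any that passed. For each tested gene the 2 genes with the highest correlation are given. A total of 12 pathway list symbols, Ltb4r2 and Ptgs1 among them, lacked a probe set of that symbol alone and are not analysed here. List sizes count symbols, and some of these 12, such as Gpr99 and Gpr44, may be older names of genes listed under another symbol.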

Additional observations from a re-analysis of the deposited data

Results flagged for a closer look

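The acetate difference in Cysltr1 was unequal between the 3 subsets, with an adjusted p of 0.00762 in limma's F test. It was 3.36-fold lower with acetate in Th17 cultures and 3.27-fold lower in Th1 cultures, against 4.19-fold higher in Treg cultures. Without Treg acetate replicate 1 the F test gave 0.0567.

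The acetate difference in Ltb4r1 was unequal between the subsets at an adjusted p of 0.0486. It was 8.01-fold higher with acetate in Treg cultures, with differences of -0.25 in Th17 and 0.51 in Th1 cultures. This F test lay just under the threshold and its adjusted p ran from 0.0144 to 0.22 over the 23 alternatives.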

How the results depend on the processing

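Of 22 comparisons in which 1 of the 8 genes passed, there were 506 values under the alternatives, of which 418 passed in the same direction, 86 no longer passed and 2 changed direction, both for Lta4h with probe sets averaged (-0.14 in Th17 cultures and -0.22 in the mean of the 3 subsets). The Cysltr1 acetate differences in Th17 and Treg cultures, the Ltb4r1 differences in Treg cultures and in the mean, the 3 Cysltr1 differences between controls, the Cysltr1 difference between Th17 and Th1 with acetate, and the Ltb4r1 difference between Th17 and Treg controls passed in all 23 alternatives. Among the other pathway lists, 63 comparisons gave 1446 values, of which 1175 passed in the same direction, 271 did not and 0 changed direction. These totals include the Cbr3 comparisons with acetate, although Cbr3 was selected through its acetate arrays.

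The number of the 6 genes that passed moved by over 1.5 times as follows, and the cause was not tested. On signals as deposited it was 1 for acetate in Th17, 1 for the mean of the subsets, and 0 for both Treg against Th1 and Th17 against Treg with acetate. With probe sets averaged it was 1 for acetate in Th17, 0 in Th1, 1 for the F test, and 0 for Treg against Th1 and Th17 against Treg with acetate. Without a trend it was 1 for acetate in Th17, 1 for the F test, 1 for Th17 against Th1 controls and 0 for Treg against Th1 with acetate. The F test count was 1 with trimmed-mean scaling, the pseudocount at the 50th percentile, no filter or the filter at the 60th percentile. Leaving out 1 array at a time, the count ran from 1 to 2 for acetate in Th17, 2 to 3 in Treg, 0 to 1 in Th1, 2 to 4 in the mean and 0 to 2 for the F test. It ran from 1 to 3 for Th17 against Th1, 1 to 2 for Treg against Th1 and 2 to 4 for Th17 against Treg in controls, and from 1 to 2, 0 to 2 and 0 to 1 for the same comparisons with acetate.

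Whether replicate numbers pair the arrays is not settled here. Deviations of same-numbered acetate and control arrays correlated at 0.153, 0.159 and -0.064 in Th17, 0.062 in Treg and -0.158 in Th1. Arrays of unlike number in Th17 correlated at -0.194 to 0.0534. In Treg and Th1 the deviations of the 2 arrays of a group mirror each other, so each subset gives only 1 independent value. These single, weak values do not settle pairing, and the negative Th1 value prompted a fit with crossed numbers. With the number as a block, 1 gene passed for Th17 against Th1 controls and 0 for Treg against Th1 with acetate, 3 in place of 4 passed for Th17 against Treg controls, and no other count changed. With crossed numbers in Th1, 1 gene passed for acetate in Th1, as without a block. As deposited, the median of all genes shifted by -0.29 for acetate in Th17 cultures, -0.13 in Treg cultures, 0.23 in Th1 cultures and 0.62 between Th17 and Th1 controls, and the genes called numbered 550 for acetate in Treg (1363 after normalization), 223 in Th1 (439), 2303 in the mean (3473), 3025 between Th17 and Th1 controls (720) and 266 between Treg and Th1 controls (545). Leaving out 1 array, they numbered 1367 to 2522 in Th17, 359 to 1639 in Treg and 74 to 955 in Th1, and 1 to 522 for the F test. Signals over background are unknown, which limits Alox5, Ltc4s and Alox5ap most.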
